A study of Mus musculus with 12 samples.

Results

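The 7 genes described here are Comp, Chad, Fmod, Cilp, Cilp2, Angptl7 and Cytl1. They encode secreted proteins, most of them known from cartilage or tendon, and were grouped as markers of the late state of scar fibroblasts. They were taken as the rows of a deposited gene count table that carry these 7 names, among 56748 rows, and each name was found once. The table covers 12 polyA RNA libraries from left ventricles of wild-type C57BL/6J mice, collected at day 14 after surgery, in 3 groups of 4. In the first group, called Irx3 MI below, mice carried an adeno-associated virus of serotype AAV9 with Irx3 and had a myocardial infarction, made by tying off the left anterior descending coronary artery. In the second group, called Ctrl MI, mice carried the AAV9 control vector and had the same infarction. In the last group, called sham, mice carried the AAV9 control vector and had sham surgery. All 3 groups received virus through the tail vein, and no group combined the Irx3 vector with sham surgery, so a difference between Irx3 MI and sham holds both the vector and the infarction. The promoter of the vector, the age and the sex of the mice are not stated in the labels, and the replicate numbers are not said to link libraries across groups. Irx3, an Iroquois homeobox transcription factor of the heart's conduction system, was at 285 to 513 CPM (counts scaled to a common library size) in Irx3 MI, against 16.8 to 30.5 CPM in Ctrl MI and 20.5 to 25.9 CPM in sham (4.09 ± 0.25 on the log2 scale, SE, for Irx3 MI against Ctrl MI, edgeR adjusted p = 1.48e-06). The counts do not separate vector-borne from endogenous Irx3.

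After an infarct, resident cardiac fibroblasts become activated, proliferate and lay down fibrillar collagen. In mouse hearts, part of these cells later leave the contractile myofibroblast state and take up a set of cartilage, tendon and bone matrix genes in the mature scar; cells in this state have been named matrifibrocytes. Comp, Chad and Fmod proteins bind collagen and organise its fibrils. The CILP proteins are matrix glycoproteins of cartilage, and CILP has been shown to bind TGF-beta and IGF1 and to restrain their signalling. Angptl7 and Cytl1 are smaller secreted proteins.

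Total counts were 13352604 to 19236721 in Irx3 MI, 16081360 to 18738571 in Ctrl MI and 15966982 to 18441830 in sham. Mitochondrially encoded genes held 10.4% to 19.01% of counts in Irx3 MI, 0.926% to 5.64% in Ctrl MI and 4.50% to 8.22% in sham. Irx3 MI library 4 stood apart with the lowest total and the highest mitochondrial share, and Ctrl MI library 4 with the lowest mitochondrial share. The part of the mitochondrial share and of depth in the results was not tested. The labels name cardiomyocytes as the cell type, but markers of fibroblasts, macrophages and endothelial cells were present in every library, so the values are of whole tissue. In such tissue, fewer cells of a type and less RNA per cell cannot be told apart.

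All 7 genes were at their highest in infarcted hearts with the control vector, above every sham heart, and lower in infarcted hearts with the Irx3 vector, where 4 stayed above sham, 2 overlapped it and Cytl1 lay below it. Together they held 0.210%, 0.0764%, 0.154% and 0.0257% of all counts in Irx3 MI libraries 1 to 4, against 0.500%, 0.285%, 0.605% and 1.18% in Ctrl MI libraries 1 to 4 and 0.0027% to 0.0051% in sham. Each Irx3 MI library lay below each Ctrl MI library and above each sham library. All 7 passed the filter on low counts. Between Ctrl MI and sham, 7 of 7 rose (edgeR quasi-likelihood test, adjusted p under 0.05), where 26.3% of the 15742 genes tested rose. All 7 had Ctrl MI libraries above every sham library, where 24.5% of genes did; the median log2 fold change was 6.73 over the 7 genes and 0.0069 over all genes. Between Irx3 MI and Ctrl MI, 7 of 7 fell, where 24.1% of genes fell, and 6 of 7 had every Irx3 MI library below every Ctrl MI library, where 18.9% of genes did; the medians were -3.33 and 0.0015. Between Irx3 MI and sham, 4 of 7 rose and 1 fell, where 35.2% of genes rose and 27.7% fell. Of the 7, 4 lay apart from sham on the higher side and 1 on the lower side, where 33.2% and 27.6% of genes did; the medians were 4.59 and 0.12. The 3 comparisons share libraries in pairs and are not independent of each other.

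Each comparison was fitted a second time with an offset per library for the GC content of the transcripts, since that offset took the genes called between Irx3 MI and Ctrl MI to 4140, against 7760 without it. With that offset 6 of 7 still fell between Irx3 MI and Ctrl MI, where 13.2% of 15186 genes fell, and Cilp was the exception. Against sham, 7 of 7 rose in Ctrl MI, where 29.8% of genes rose. In Irx3 MI 5 of 7 rose and 1 fell against sham, where 32.1% rose and 22.4% fell. Without library 4 of both infarcted groups, the counts were 7 of 7 higher for Ctrl MI against sham, 6 of 7 lower for Irx3 MI against Ctrl MI, and 6 of 7 higher with 1 lower for Irx3 MI against sham. Of the 15982 genes tested in that fit, 3867 were higher in the first of these comparisons and 3583 lower in the second. In the last, 5956 were higher and 4806 lower.

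**Figure D1:**
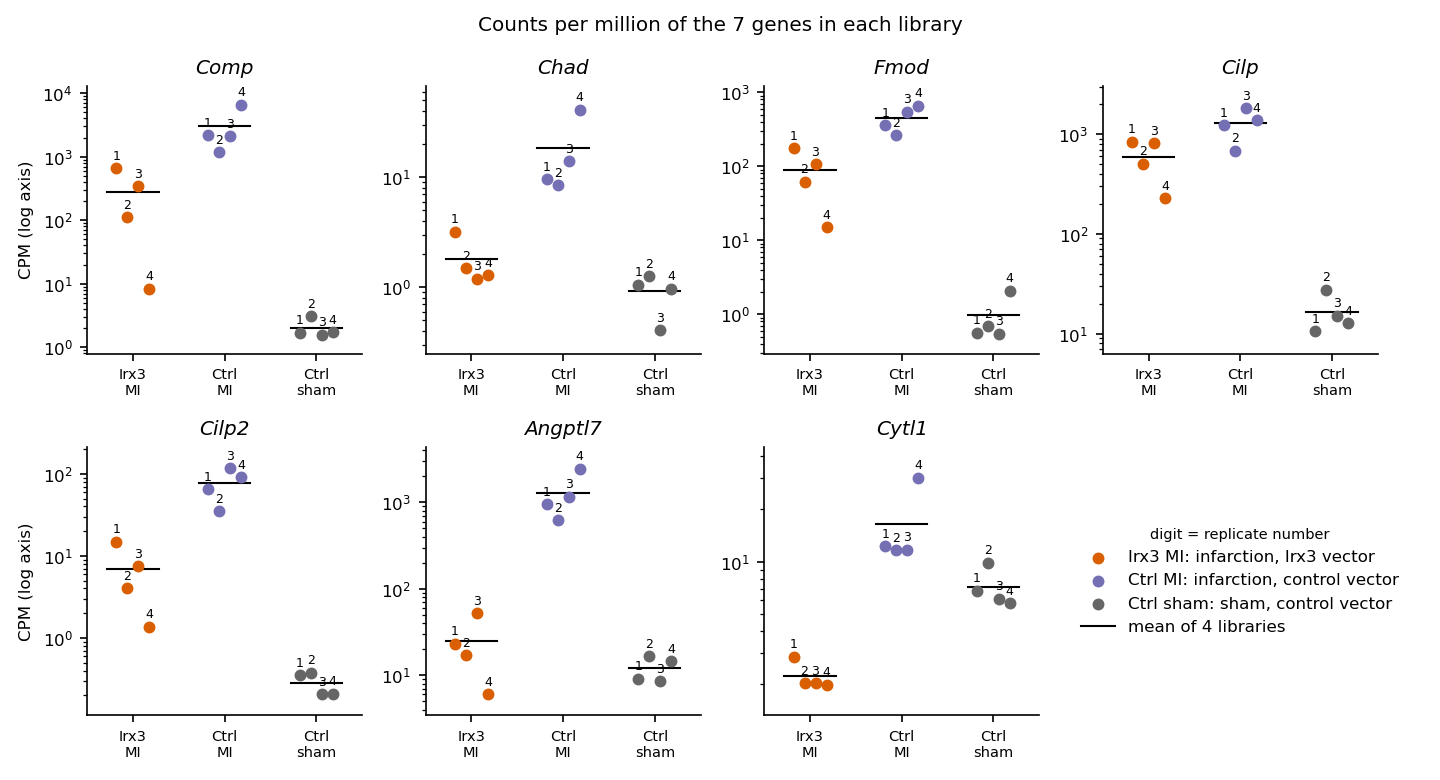
CPM of each gene in each of the 12 libraries on log axes, with Irx3 MI on the left, Ctrl MI in the middle and sham on the right; each point is a library, digits are replicate numbers and bars are means of 4 libraries. Ctrl MI lies above sham for all 7 genes, Irx3 MI lies below Ctrl MI for all but Cilp, and Cytl1 in Irx3 MI lies below sham.

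Compared per kilobase of exon, the order of the genes differed between the groups. In Irx3 MI, Cilp led with 140.5 ± 68.3 RPKM (SD, n = 4), followed by Comp with 95.2 ± 97.7, Fmod with 27.3 ± 20.9, Angptl7 with 11.4 ± 9.07, Cytl1 with 2.10 ± 0.409, Cilp2 with 1.61 ± 1.37 and Chad with 1.07 ± 0.565 RPKM. In Ctrl MI, Comp led with 1014 ± 818 RPKM, followed by Angptl7 with 601 ± 374, Cilp with 301 ± 109, Fmod with 138 ± 54.1, Cilp2 with 17.9 ± 8.17, Cytl1 with 15.5 ± 8.66 and Chad with 10.9 ± 9.19 RPKM. In sham, Cytl1 led with 6.77 ± 1.76 RPKM, followed by Angptl7 with 5.64 ± 1.83, Cilp with 3.88 ± 1.78, Comp with 0.680 ± 0.239, Chad with 0.549 ± 0.216, Fmod with 0.294 ± 0.226 and Cilp2 with 0.0661 ± 0.0212 RPKM. Neighbours in these orders overlapped in their libraries except Angptl7 and Cytl1 in Irx3 MI, Fmod and Cilp2 in Ctrl MI, and Cilp and Comp as well as Fmod and Cilp2 in sham. As a share of the reads of the 7 genes, Comp held 3.20% to 38.3% in Irx3 MI, 36.3% to 58.5% in Ctrl MI and 4.57% to 5.58% in sham. Angptl7 held 1.34% to 3.91% in Irx3 MI, 19.6% to 22.1% in Ctrl MI and 26.2% to 38.0% in sham.

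The genes lie on 6 chromosomes of GRCm38, the build of the reference annotation and not of the count table: Comp at chr8:70373558-70382066 (plus strand) and Cilp2 at chr8:69880369-69887687 (minus), Chad at chr11:94565047-94569127 (plus), Fmod at chr1:134037254-134048277 (plus), Cilp at chr9:65265180-65280605 (plus), Angptl7 at chr4:148495183-148500460 (minus) and Cytl1 at chr5:37735519-37739820 (plus). Angptl7 lies inside Mtor and Chad inside Acsf2, each on the opposite strand, and neither pair shares an exonic base in the annotation. The strand setting of the counting is not given in the sources used here, so intronic reads of a host gene cannot be told apart from reads of the gene inside it. Mtor was at 85.4 to 116 CPM in Irx3 MI, 128 to 163 CPM in Ctrl MI and 195 to 231 CPM in sham, and Acsf2 at 45.2 to 63.6, 36.0 to 53.2 and 82.8 to 103 CPM in the same groups. Both host genes were lower in Ctrl MI than in sham, by -0.55 (Mtor) and -0.93 (Acsf2) on the log2 scale. Between Irx3 MI and Ctrl MI, Mtor was lower (-0.59), the direction of Angptl7, and Acsf2 differed by 0.15 with overlapping libraries. The part of host gene reads in the values of Angptl7 and Chad was not tested.

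Of the 7 genes, Angptl7 fell most between Irx3 MI and Ctrl MI, Cilp fell least and Chad lay between them. Chad, like Angptl7, fell to values that overlapped sham. The promoters of these 3 genes are shown because they span the range of the falls. Each is the 150 bases before the RefSeq start in GRCm38.p6, 5′ to 3′ on the gene's strand. They lie at chr4:148500463-148500612 (minus strand) for Angptl7, chr11:94564897-94565046 (plus strand) for Chad and chr9:65265030-65265179 (plus strand) for Cilp. Capitals mark matches, on either strand, to the letters searched. These were TATAA (the core of a TATA box), CATTCC (TEAD), TGANTCA (AP-1), CATCTG (an E-box of the scleraxis type), ACAAT (a SOX core) and CAGAC (a SMAD box).
Angptl7: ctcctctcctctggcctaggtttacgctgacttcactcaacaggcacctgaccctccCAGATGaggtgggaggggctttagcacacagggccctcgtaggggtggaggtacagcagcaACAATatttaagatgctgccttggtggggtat
Chad: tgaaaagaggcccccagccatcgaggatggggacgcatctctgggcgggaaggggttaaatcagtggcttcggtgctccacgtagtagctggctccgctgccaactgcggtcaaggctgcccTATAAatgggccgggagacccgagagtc
Cilp: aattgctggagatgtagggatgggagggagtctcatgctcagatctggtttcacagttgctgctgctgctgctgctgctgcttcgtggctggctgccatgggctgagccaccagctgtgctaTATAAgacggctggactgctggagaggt
Both strands were searched in the 250 bases before the start of 6 of the 7 genes, and no match shared a base with another. Chad and Cilp each held TATAA with its first base at position -28, and 22.8% of 32851 promoters held this motif. CATCTG stood in Angptl7 at -93 and in Fmod at -189, against 14.4% of all promoters. ACAAT was in 2 of 6, Angptl7 and Cilp2, against 27.7%, and CAGAC was in 4 of 6, all but Chad and Cilp, against 42.2%. CATTCC and TGANTCA, held by 12.6% and 6.75% of promoters, did not occur in these windows. These matches describe letters in the windows and are not binding sites.

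Comp, cartilage oligomeric matrix protein, is a pentameric member of the thrombospondin family that binds fibrillar collagens. It had 661, 112, 347 and 8.36 CPM in Irx3 MI libraries 1 to 4, against 2187, 1174, 2090 and 6584 CPM in Ctrl MI and 1.69, 3.08, 1.57 and 1.74 CPM in sham. No 2 groups overlapped, but Irx3 MI library 4 sat close to sham and far below the other Irx3 MI libraries. Comp rose by 10.53 ± 1.26 (log2, SE) in Ctrl MI against sham (edgeR adjusted p = 5.34e-05), the 3rd largest rise of 15742 genes. It fell by 3.41 ± 0.91 in Irx3 MI against Ctrl MI (edgeR adjusted p = 0.00738), a 10.7-fold lower level, and remained 7.12 ± 1.12 above sham (adjusted p = 0.000133). The fall was -2.65 with the GC offset (adjusted p = 0.0393), -2.66 without Ctrl MI library 4 (adjusted p = 0.0471), -2.29 without library 4 of both infarcted groups and -4.27 without Irx3 MI library 1. The rise was 9.74 without Ctrl MI library 4, and the difference from sham in Irx3 MI was 6.21 without Irx3 MI library 1.

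Fmod, fibromodulin, is a small leucine-rich proteoglycan that binds collagen and guides its crosslinking. Its values were 177, 61.9, 106 and 15.0 CPM in Irx3 MI, against 358, 261, 547 and 656 CPM in Ctrl MI and 0.562, 0.691, 0.546 and 2.09 CPM in sham. The 3 groups did not overlap, and Irx3 MI library 4 was again the lowest of its group. Fmod rose by 8.87 ± 0.81 in Ctrl MI against sham (edgeR adjusted p = 1.77e-05), ranking 9 of 15742 from the top. It fell by 2.33 ± 0.57 in Irx3 MI against Ctrl MI (edgeR adjusted p = 0.00435), and by 1.79 with the GC offset (adjusted p = 0.0339). Irx3 MI stayed 6.54 ± 0.75 above sham (adjusted p = 1.38e-05). Sham library 4, with 30 Fmod counts against 8 to 11 in the others, lowered both differences from sham, which were 9.54 and 7.20 without it; without Irx3 MI library 1, Irx3 MI was 5.92 above sham.

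Chad, chondroadherin, is a leucine-rich repeat protein of cartilage that binds collagen and integrins. It had 3.21, 1.48, 1.20 and 1.29 CPM in Irx3 MI, against 9.57, 8.48, 14.0 and 41.2 CPM in Ctrl MI and 1.05, 1.26, 0.410 and 0.973 CPM in sham. Ctrl MI stood clear of both other groups, while Irx3 MI and sham overlapped. Chad rose by 4.30 ± 0.57 in Ctrl MI against sham (edgeR adjusted p = 0.000104) and fell by 3.33 ± 0.53 in Irx3 MI against Ctrl MI (edgeR adjusted p = 0.00029), a 10.1-fold lower level. The difference of Irx3 MI from sham was 0.97 ± 0.59 and did not pass (adjusted p = 0.165), though it did with the GC offset (1.51, adjusted p = 0.0399) and without library 4 of both infarcted groups (1.08, adjusted p = 0.0274). Without Ctrl MI library 4, the rise was 3.46 and the fall was -2.54; with the GC offset the fall was -2.71.

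Cilp and Cilp2 are paralogous matrix glycoproteins, named for the intermediate layer of cartilage. Cilp had 843, 505, 814 and 227 CPM in Irx3 MI, against 1241, 686, 1812 and 1389 CPM in Ctrl MI and 10.6, 27.5, 15.2 and 12.8 CPM in sham. It was the only gene of the 7 whose libraries overlapped between Irx3 MI and Ctrl MI: Irx3 MI libraries 1 and 3 lay above Ctrl MI library 2. Cilp rose by 6.28 ± 0.51 in Ctrl MI against sham (edgeR adjusted p = 1.05e-05), and Irx3 MI was 5.17 ± 0.49 above sham (adjusted p = 3.77e-06). Its fall of 1.10 ± 0.41 in Irx3 MI against Ctrl MI was the smallest of the 7 and passed narrowly (edgeR adjusted p = 0.0399). That call was lost with the GC offset (-0.74, adjusted p = 0.202), with library 4 of both infarcted groups left out (-0.79, adjusted p = 0.116) and without any of 6 single libraries: Irx3 MI 2 (-1.01, adjusted p = 0.0982), Irx3 MI 4 (-0.83, 0.0764), Ctrl MI 1 (-1.11, 0.0673), Ctrl MI 3 (-0.88, 0.117), Ctrl MI 4 (-1.05, 0.0839) or sham 3 (-1.11, 0.0515).

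Like Cilp, Cilp2 rose in Ctrl MI and stayed above sham in Irx3 MI, but its fall between the infarcted groups was larger. It had 15.0, 4.02, 7.52 and 1.37 CPM in Irx3 MI, against 65.5, 35.0, 117 and 91.3 CPM in Ctrl MI and 0.351, 0.377, 0.205 and 0.209 CPM in sham, the last from 3 to 6 counts a library. No 2 groups overlapped. Cilp2 rose by 8.04 ± 0.76 in Ctrl MI against sham (edgeR adjusted p = 1.87e-05) and fell by 3.45 ± 0.53 in Irx3 MI against Ctrl MI (edgeR adjusted p = 0.000247), to a 10.9-fold lower level. Irx3 MI was 4.59 ± 0.77 above sham (adjusted p = 0.000215). The fall was -2.87 with the GC offset (adjusted p = 0.00171) and -4.13 without Irx3 MI library 1, when the difference from sham was 3.85.

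Angptl7, a secreted angiopoietin-like protein known from the cornea and the outflow tissue of the eye, differed most between the vectors. It had 23.2, 17.2, 52.0 and 6.08 CPM in Irx3 MI, against 946, 619, 1163 and 2458 CPM in Ctrl MI and 9.13, 16.5, 8.53 and 14.5 CPM in sham. The lowest Ctrl MI library was above the highest Irx3 MI library by an order of magnitude, and Irx3 MI overlapped sham. Angptl7 rose by 6.73 ± 0.68 in Ctrl MI against sham (edgeR adjusted p = 2.3e-05) and fell by 5.72 ± 0.64 in Irx3 MI against Ctrl MI (edgeR adjusted p = 4.22e-05), a 52.5-fold lower level and the 4th lowest fold change of 15742 genes. The GC offset left the fall at -5.73. Irx3 MI differed from sham by 1.02 ± 0.54, which did not pass (adjusted p = 0.118) but did without Irx3 MI library 4 (1.33, adjusted p = 0.0265), and it was 0.32 without Irx3 MI library 3 (adjusted p = 0.608). The fall was -6.37 without Irx3 MI library 3 and -4.89 without library 4 of both infarcted groups.

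Cytl1, cytokine-like protein 1, is made by chondrocytes and takes part in chondrogenesis in mouse cells. It had 2.86, 2.01, 2.02 and 1.98 CPM in Irx3 MI, against 12.2, 11.6, 11.7 and 30.1 CPM in Ctrl MI and 6.81, 9.86, 6.14 and 5.77 CPM in sham. It was the only gene of the 7 that was lower in Irx3 MI than in sham, and no 2 groups overlapped. Its rise of 1.20 ± 0.31 in Ctrl MI against sham was the smallest of the 7 (edgeR adjusted p = 0.00628) and was 0.67 without Ctrl MI library 4 (adjusted p = 0.0186). Cytl1 fell by 2.88 ± 0.34 in Irx3 MI against Ctrl MI (edgeR adjusted p = 5.09e-05) and by 1.68 ± 0.33 in Irx3 MI against sham (edgeR adjusted p = 0.000711). With the GC offset these were -2.79 and -1.49, both past the threshold.

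**Figure D2:**
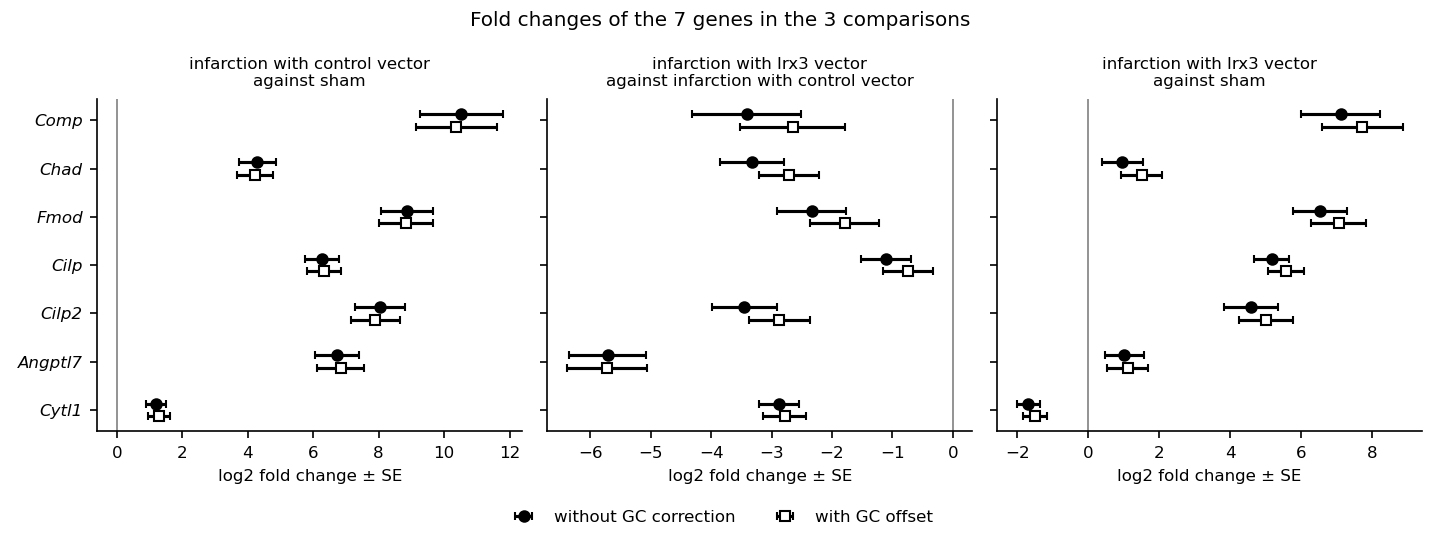
Log2 fold changes with standard errors of the 7 genes in the 3 comparisons, without GC correction (filled circles) and with the GC offset (open squares). Each comparison is the first named group over the second, so the middle panel lies left of 0 throughout, from -5.72 for Angptl7 to -1.10 for Cilp, and in the right panel Cytl1 lies left of 0.

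The 7 genes were also set against 2 main scar collagens measured in the same library. Col1a1, the main chain of type I collagen, was at 742 to 8079.7 CPM in Irx3 MI and 3801 to 13999.9 CPM in Ctrl MI, and its difference of -1.05 ± 0.57 did not pass (edgeR adjusted p = 0.146); Col3a1, of type III collagen, differed by -0.70 ± 0.51 (adjusted p = 0.271). Per 100 Col1a1 counts, Comp had 8.19, 5.49, 9.94 and 1.13 counts in Irx3 MI, against 34.2, 30.9, 37.8 and 47.0 in Ctrl MI and 0.959 to 1.62 in sham. Angptl7 had 0.287 to 1.49 counts per 100 Col1a1 counts in Irx3 MI, against 14.8 to 21.1 in Ctrl MI and 5.21 to 12.02 in sham. So Angptl7 in Irx3 MI was below sham on this scale, as were Chad and Cytl1, where 88.7% of genes were. Fmod in Irx3 MI was above every sham library, where 0.311% of genes were. Cilp2 had 0.184 to 0.215 in Irx3 MI, against 0.652 to 2.12 in Ctrl MI and 0.125 to 0.233 in sham, and Fmod 2.03 to 3.05, against 4.69 to 9.91 in Ctrl MI and 0.334 to 1.73 in sham. Cilp, at 10.4 to 30.6 in Irx3 MI and 9.92 to 32.8 in Ctrl MI, covered the same span in both. Chad and Cytl1 each overlapped between Irx3 MI and Ctrl MI in 1 library, Irx3 MI 4. Per Col1a1 count, 4 of the 7 (Comp, Fmod, Cilp2 and Angptl7) were lower in every Irx3 MI library than in any Ctrl MI library, where 0.28% of 15741 genes were. This ratio describes counts within a library and does not show that Col1a1 itself was unchanged. Per Col3a1 count this held for 6 of the 7, all but Cilp, where 0.54% of genes were. Against sham, the same 4 genes per Col1a1 count were higher in every Ctrl MI library, where 0.286% of genes were, and Cytl1 was lower, where 95.9% were. Per Col3a1 count 3 of the 7 were higher than sham in every Ctrl MI library, where 0.248% of genes were; Angptl7 overlapped sham, at 13.6 to 23.6 counts per 100 Col3a1 counts in Ctrl MI and 9.42 to 19.5 in sham, and Chad and Cytl1 were lower, where 96.5% were.

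**Figure D3:**
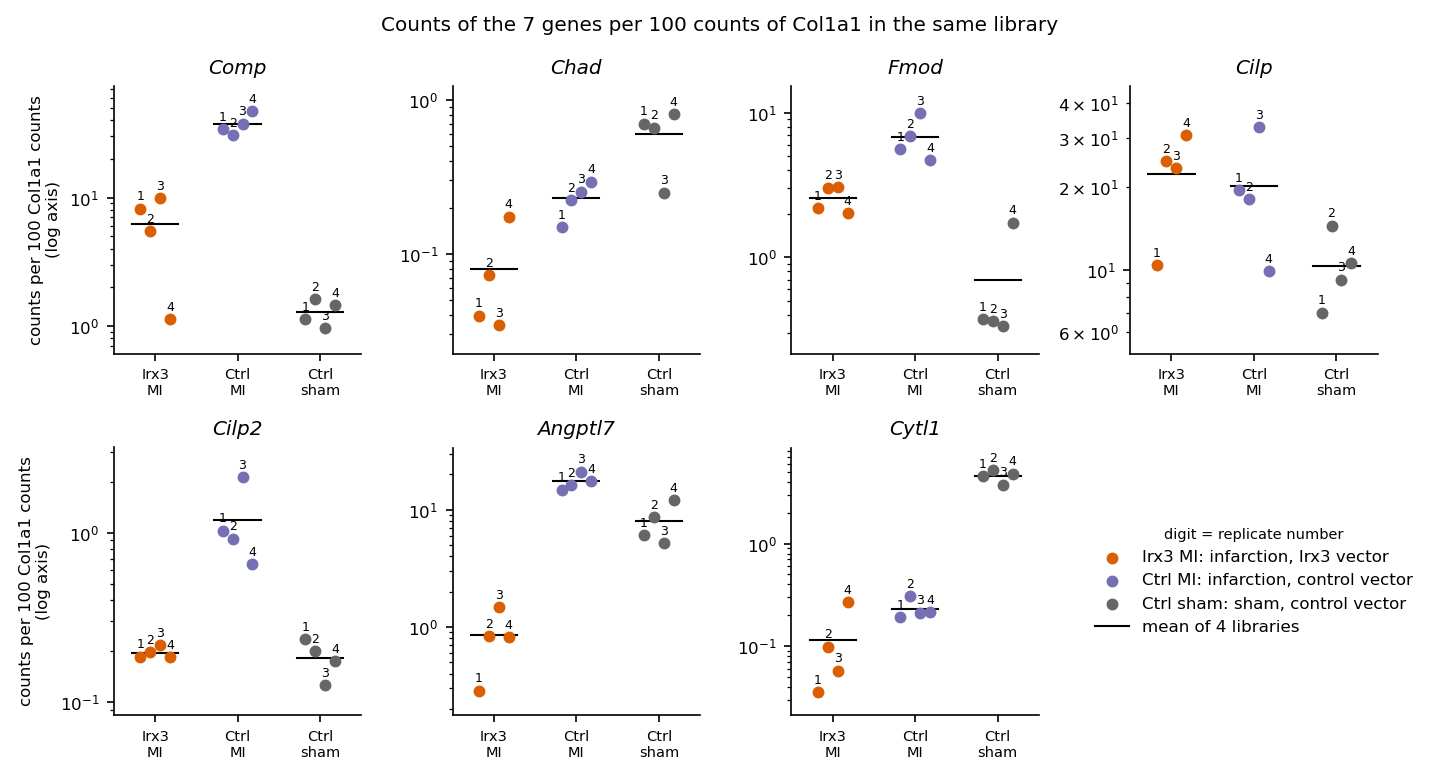
Counts of each gene per 100 counts of Col1a1 in the same library, on log axes, with Irx3 MI left of Ctrl MI and sham on the right; points are libraries, digits are replicate numbers and bars are means of 4. Comp, Fmod, Cilp2 and Angptl7 in Irx3 MI lie below every Ctrl MI library, Cilp covers the same range in both, and Cytl1 is highest in sham.

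Markers of fibroblasts also differed between the libraries. The summed level of 12 activated fibroblast markers was 8733, 2527, 3997 and 1536 CPM in Irx3 MI libraries 1 to 4, against 7381, 5164, 6800 and 14541 CPM in Ctrl MI and 458 to 766 CPM in sham. Irx3 MI library 4 was the lowest infarcted library and Ctrl MI library 4 the highest, as they were for the mean of the 7 genes. Irx3 MI library 1 lay above 3 of the 4 Ctrl MI libraries in activated markers. Its Comp, at 661 CPM, and its Angptl7, at 23.2 CPM, were below every Ctrl MI library. Its Cilp, at 843 CPM, lay above Ctrl MI library 2, at 686 CPM. For 12 resident fibroblast markers the sums were 1983 to 3413 CPM in Irx3 MI, 4056 to 9111 CPM in Ctrl MI and 2389 to 2810.1 CPM in sham. By sum, Irx3 MI did not overlap Ctrl MI but overlapped sham. Gsn weighed heavily in these sums, with means of 1313 CPM in Irx3 MI and 1575 CPM in sham. By gene, 7 of the 12 rose and 1 fell in Irx3 MI against sham, with a median of 0.71 (log2). Over all genes tested 35.2% rose and 27.7% fell in that comparison. Of these 12, 9 fell between Irx3 MI and Ctrl MI, and of the 12 activated markers 3 fell and 1 rose. Over all genes tested 24.1% fell and 25.2% rose, so the falls among activated markers were near that share. Sums of 6 other late-scar markers, described below, were 955 to 2398 CPM in Irx3 MI and 2801 to 7492 CPM in Ctrl MI. In sham they were 855 to 1103 CPM. Most of these sums was Clu, which averaged 1220 CPM in Irx3 MI, 2973 CPM in Ctrl MI and 998 CPM in sham. By gene, 5 of the 6 rose and 0 fell in Irx3 MI against sham, and Clu was the exception (0.29, edgeR adjusted p = 0.374). Cardiomyocyte marker sums were 29429 to 54799 CPM in Irx3 MI, 27609 to 62768 CPM in Ctrl MI and 92908 to 111332 CPM in sham, and macrophage sums were 744 to 1453, 1118 to 2663 and 349.6 to 421 CPM. Smooth muscle and pericyte sums did not overlap between the infarcted groups and went the other way. They were 1218 to 1384 CPM in Irx3 MI, 935 to 1009 CPM in Ctrl MI and 1192 to 1242 CPM in sham. By gene these 7 markers were mixed between Irx3 MI and Ctrl MI: 3 rose (Cnn1, Rgs5 and Abcc9) and 1 fell (Pdgfrb). Their median log2 fold change was -0.38, so the higher sum did not hold for the markers as a set. The part of cell numbers in the falls of the 7 genes was not tested.

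**Figure D4:**
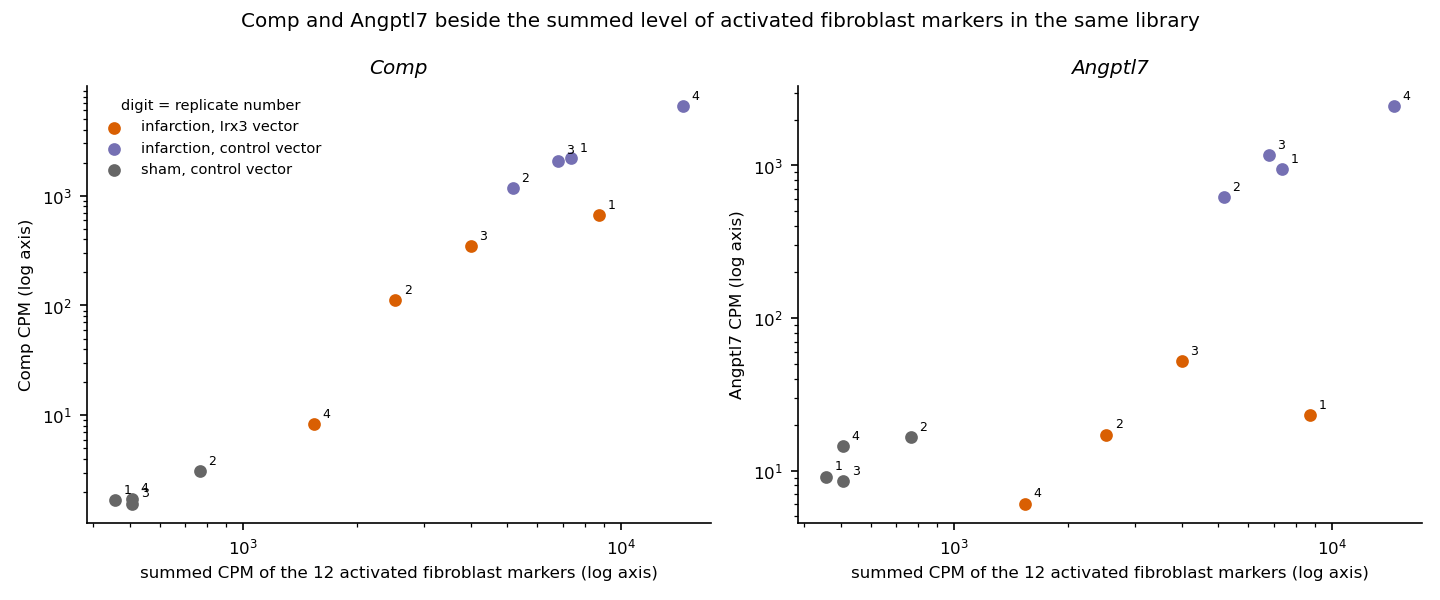
CPM of Comp (left) and Angptl7 (right) against the summed CPM of 12 activated fibroblast markers in the same library, on log axes; points are libraries, colours are groups and digits are replicate numbers. Irx3 MI library 1, at 8733 CPM of markers, has 661 CPM of Comp and 23.2 CPM of Angptl7, below all 4 Ctrl MI libraries. Its sum of resident fibroblast markers, not plotted, was also below all 4 Ctrl MI libraries.

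Markers that define cartilage cells were nearly absent in sham: Col2a1, Col9a1 and Matn3 were at 0 counts in all 4 sham libraries, and 8 chondrocyte markers summed to 1.95 to 5.71 CPM. In infarcted hearts they summed to 11.1 to 96.6 CPM in Irx3 MI and 29.0 to 84.8 CPM in Ctrl MI. The overlap rested on Irx3 MI library 1 with 96.6 CPM, since the other Irx3 MI libraries, with 18.96, 25.2 and 11.1 CPM, lay below every Ctrl MI library. Of the 6 tested, 5 rose in Ctrl MI against sham, where 26.3% of all genes rose. Between Irx3 MI and Ctrl MI 0 of the 6 passed, where 49.3% of all genes did. The 6 differed between Irx3 MI and Ctrl MI by a median of -0.80 on the log2 scale, all 6 on the lower side and none past the threshold: Col2a1 by -2.11 (edgeR adjusted p = 0.101), Matn3 by -1.19 (0.254), Cnmd by -1.04 (0.0823), Col9a3 by -0.55 (0.349), Sox9 by -0.09 (0.883) and Acan by -0.04 (0.978). Acan, the core protein of cartilage aggrecan, was at 14.6 CPM on average in Irx3 MI, 15.1 CPM in Ctrl MI and 0.622 CPM in sham. Sox9, the transcription factor that drives chondrocyte differentiation, averaged 19.2 CPM in Irx3 MI, 20.4 CPM in Ctrl MI and 1.81 CPM in sham; it rose by 3.48 in Ctrl MI against sham (edgeR adjusted p = 0.000181). Acan and Sox9 were chosen after the values were seen, and they are the pair that differed least between the vectors. Valve cells also express cartilage genes. The sums of 4 markers of valve interstitial cells were 20.6 to 83.4 CPM in Irx3 MI, 25.1 to 55.7 CPM in Ctrl MI and 8.94 to 19.5 CPM in sham, with Hapln1 at 0 in sham. Most of each sum was Prg4, which averaged 42.9, 31.0 and 8.85 CPM in the same groups. Of the 3 tested, 1 rose (Prg4) and 1 fell (Wif1, by -1.74, edgeR adjusted p = 0.0153) in Irx3 MI against sham.

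The counts below for related gene lists are to be read against the share of all genes tested: 26.3% rose and 22.4% fell in Ctrl MI against sham, and 25.2% rose and 24.1% fell in Irx3 MI against Ctrl MI. Of 6 other late-scar markers, 6 rose in Ctrl MI against sham, and between Irx3 MI and Ctrl MI 4 fell and 1 rose. Those that fell were Clu, an extracellular chaperone (-1.28 ± 0.28, edgeR adjusted p = 0.00227), Ecrg4, a secreted peptide precursor (-2.61), Ccn5, a matricellular protein (-1.83), and Sfrp2, a Wnt modulator (-2.23). Meox1, a homeobox factor of activated fibroblasts, rose (0.52 ± 0.20, adjusted p = 0.0408), a call that was lost with DESeq2's scaling and without any single sham library. With the GC offset 1 of 5 tested fell, and without Ctrl MI library 4 the number was 2 of 6. The list was chosen for scars and with earlier results of these data known, so its direction after infarction is no independent evidence.

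Of 21 cartilage collagens and matrix proteins, 13 could be tested; 10 rose in Ctrl MI against sham, and 3 fell and 0 rose in Irx3 MI against Ctrl MI. The 3 were Col9a2, a chain of the collagen on the surface of cartilage fibrils (-1.51 ± 0.30, edgeR adjusted p = 0.00109), Col11a2 (-1.01) and Matn2 (-1.02). With the GC offset 2 fell, and Col11a2 was at -0.40 (adjusted p = 0.277). A share of 3 in 13 is near that of all genes. Col9a2 had 4.63 ± 1.94 CPM in Irx3 MI, 13.3 ± 3.90 CPM in Ctrl MI and 0.420 ± 0.0636 CPM in sham (SD, n = 4). Without Irx3 MI library 1, 9 of the 13 fell. Of 17 cartilage regulators tested from 21, 11 rose and 4 fell in Ctrl MI against sham, and 6 fell in Irx3 MI against Ctrl MI (4 fell and 1 rose with the GC offset). Those with the smallest p were Fgfr3, a receptor that restrains growth plate cartilage (-1.44 ± 0.17, adjusted p = 5.17e-05), Bmp6 (-1.16) and Bmp4 (-1.31), which are bone morphogenetic proteins, and Runx3, a runt family factor of chondrocyte maturation (-2.06 ± 0.26, adjusted p = 7.99e-05). Fgfr3 and Bmp6 were already lower in Ctrl MI than in sham, unlike the 7 genes.

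Of 10 tendon and ligament genes tested from 12, 10 rose in Ctrl MI against sham, and between Irx3 MI and Ctrl MI 1 rose and 1 fell. Scx, the tendon transcription factor scleraxis, rose to 20.5 ± 3.40 CPM in Irx3 MI, against 12.3 ± 2.80 CPM in Ctrl MI and 4.68 ± 1.65 CPM in sham (0.73 ± 0.24, edgeR adjusted p = 0.0204, and 1.40 with the GC offset), a call that was lost without Irx3 MI library 2. Fibin, a secreted protein, fell to 46.6 ± 19.3 CPM in Irx3 MI, against 320.1 ± 103 CPM in Ctrl MI and 15.1 ± 2.93 CPM in sham (-2.78 ± 0.33, adjusted p = 5.4e-05). Without Irx3 MI library 1, 5 of 10 fell, and with the GC offset 3 rose, as 3 did without Ctrl MI library 3. Without library 4 of either infarcted group 2 rose. Of 9 bone genes tested from 18, 5 rose and 1 fell in Ctrl MI against sham and 2 fell in Irx3 MI against Ctrl MI: Mgp, an inhibitor of calcification (-1.89 ± 0.33, adjusted p = 0.000502), and Ahsg, the serum protein fetuin A (-2.13).

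Among the families of single members, 11 of 13 small leucine-rich proteoglycans tested besides Fmod and Chad rose in Ctrl MI against sham, and 3 fell and 1 rose in Irx3 MI against Ctrl MI. Podn (-1.35), Prelp (-1.74) and Bgn (-1.23) fell, and Ogn rose (0.75 ± 0.24, edgeR adjusted p = 0.0202), but Ogn was lower with the GC offset (-0.94) and the list had no rise without Ctrl MI library 1 or Irx3 MI library 1 or 3. Without Irx3 MI library 2 or 4, 2 of these proteoglycans rose, and without Irx3 MI library 2, 2 fell. Of 4 other thrombospondins, 4 rose in Ctrl MI against sham and 1, Thbs3, fell in Irx3 MI against Ctrl MI (-1.84 ± 0.41, adjusted p = 0.00274); without Irx3 MI library 1, 3 of 4 fell, and without sham library 2, 2 did. Thbs4, the tendon thrombospondin, averaged 282 ± 123 CPM in Irx3 MI, 468 ± 249 CPM in Ctrl MI and 5.40 ± 4.06 CPM in sham and did not pass between Irx3 MI and Ctrl MI (adjusted p = 0.228). All 5 angiopoietin-like genes tested besides Angptl7 fell between Irx3 MI and Ctrl MI (3 with the GC offset), led by Angptl4, an inhibitor of lipoprotein lipase (-2.69 ± 0.37, adjusted p = 0.000128), and Angptl2 (-1.25). In Ctrl MI 3 of these 5 rose and 1 fell against sham, the fall being lost without sham library 2.

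Of 16 genes of TGF-beta and IGF1 signalling, whose ligands CILP binds, 10 rose and 1 fell in Ctrl MI against sham, and 3 rose and 8 fell in Irx3 MI against Ctrl MI. Igf1 was at 60.8 ± 22.9 CPM in Irx3 MI, 17.3 ± 3.68 CPM in Ctrl MI and 3.14 ± 0.343 CPM in sham (1.81 ± 0.23 for Irx3 MI against Ctrl MI, edgeR adjusted p = 8.14e-05). Tgfb2 was also higher in Irx3 MI than in Ctrl MI (1.35 ± 0.17, adjusted p = 6.8e-05), and Ltbp1 (-0.84) and Ltbp4 (-1.85), which hold latent TGF-beta in the matrix, were lower. With the GC offset 4 fell and 2 rose, and without Irx3 MI library 2 5 fell. Of 5 collagen-binding integrins, 4 rose in Ctrl MI against sham, and between Irx3 MI and Ctrl MI 2 rose (Itga1 0.72, Itgb1 0.43) and 2 fell (Itga10 -1.19, Itga11 -1.23). With the GC offset 0 integrins rose and 1 fell. Without Ctrl MI library 1 only 1 rose, and without Ctrl MI library 4 or Irx3 MI library 2 only 1 fell. All 11 fibrillar collagens and lysyl oxidases rose in Ctrl MI against sham, and 2 fell between Irx3 MI and Ctrl MI, Loxl3 (-2.03 ± 0.45, adjusted p = 0.00236) and Loxl1 (-1.30). With the GC offset 1 fell and 1 rose, and Loxl1 was at -0.56 (adjusted p = 0.206). Without Irx3 MI library 1, 8 of 11 fell. Among activated fibroblast markers, Ccn2, a matricellular protein and YAP target (-2.30), Acta2 (-1.24) and Ltbp2 (-1.96) fell, but Ltbp2 missed the threshold with the GC offset (-1.26, adjusted p = 0.133). Without Irx3 MI library 1 the number was 5, and without Irx3 MI library 2 or Ctrl MI library 4 it was 2. Pi16 (-1.77), Tcf21 (-1.42), Gsn (-1.35) and Dpep1 (-1.19) led the 9 resident fibroblast markers that fell, of which the number was 7 with the GC offset.

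Within the 7 genes, the most alike pair across the 12 libraries was Cilp2 and Fmod, whose centred log2 CPM differed by a root mean square of 1.10, followed by Comp and Fmod at 1.11 and Cilp and Cilp2 at 1.15. The least alike was Comp and Cytl1 at 4.21. The mean of the 7 centred values was 0.98, -0.27, 0.49 and -1.72 in Irx3 MI libraries 1 to 4, against 3.03, 2.47, 3.42 and 4.16 in Ctrl MI and -3.29, -2.69, -3.54 and -3.04 in sham. Over the 11166 other genes whose log2 CPM averaged 2 or more, the median distance from this profile was 2.77. Among the nearest genes, chosen for this likeness and so given without a test, were Pdgfrl (0.56), a PDGF receptor-like protein, Loxl3 (0.62), a lysyl oxidase, Gdf15 (0.64), a stress cytokine of the TGF-beta family, Ccn5 (0.68), Mfap4 (0.69), a microfibril-associated protein, Itgbl1 (0.73), an integrin beta-like protein, and Frzb (0.77), a secreted Wnt antagonist first found in cartilage. Pdgfrl averaged 28.1 ± 19.9 CPM in Irx3 MI, 102 ± 45.2 CPM in Ctrl MI and 2.28 ± 0.534 CPM in sham. Gdf15 averaged 17.0 ± 3.72 CPM in Irx3 MI, 138 ± 63.7 CPM in Ctrl MI and 1.85 ± 0.155 CPM in sham, with the 4 Irx3 MI libraries closer together than those of Pdgfrl.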

How the data were processed

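PolyA RNA of mouse left ventricles was sequenced in 12 libraries, 4 in each of 3 groups taken from the labels. The authors deposited raw counts of reads per gene for all libraries in a single table. Reads were trimmed with fastp and the genome build was GRCm39, per the submitters' processing notes; for the aligner, counter, annotation and strand setting, the entry is not given in the sources used here. Counts were fitted with edgeR 4.0.16 (R 4.3.3, limma 3.58.1): TMM factors, the default filter on low counts by group (15742 genes kept), and a robust quasi-likelihood test over all 3 groups with 9 residual degrees of freedom and Benjamini-Hochberg adjustment at 0.05. CPM used TMM-scaled library sizes, and RPKM used exon lengths from GENCODE M21 on GRCm38, matched by gene. The GC offset was a natural spline of 6 degrees of freedom per library. The fits were also run on simulated counts with far fewer changed genes than were called here. That run therefore cannot show how well the calls hold in these data. Alternatives were DESeq2 1.42.0, other scalings and filters, a fold threshold of 1.5, a replicate block and leaving out libraries. The members and gene lists were chosen with earlier results of these data known. Genes named from a list were the 4 with the smallest p between Irx3 MI and Ctrl MI, and any other gene is said to be chosen after its values were seen or belongs to the comparison itself. Total counts of 13352604 to 19236721 set the depth. The labels do not say that each library came from a separate mouse, so p-values measure the spread between these libraries, which may be technical. Replicate numbers were not used to pair libraries: correlations of same-numbered libraries ran from -0.421 to 0.0966. The genes most like the 7 were those with the smallest root mean square difference from their mean profile, and 1 of them is not reported here.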

Additional observations from a re-analysis of the deposited data

Results flagged for a closer look

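In 4 of the 21 combinations of a gene and a group, a single library lay far from the other 3 of its group on the log2 CPM scale. Chance alone does this in about 1 of 20 such combinations. Cytl1 was at 1.55 in Irx3 MI library 1, above the other Irx3 MI libraries, and at 4.92 in Ctrl MI library 4, above the other Ctrl MI libraries. Comp was at 1.65 in sham library 2 and Fmod at 1.1 in sham library 4, each above the other sham libraries.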

How the results depend on the processing

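Of 504 fold changes of the 7 genes under the alternatives, 484 kept their direction and side of the threshold, 15 lost the call, 5 gained it and 0 reversed. With a tested fold of 1.5, genes called were 3689 for Ctrl MI against sham, 2787 for Irx3 MI against Ctrl MI and 5535 for Irx3 MI against sham, against 7662, 7760 and 9904 without it. For Irx3 MI against Ctrl MI, the GC offset left 4140 genes, and the GC offset with a replicate block left 2967 genes and 4 of the 7. That last setting lost Cilp, Comp (-2.91, adjusted p = 0.0866) and Fmod (-1.90, adjusted p = 0.0685). Without single libraries, genes called were 6708 to 8513, 6765 to 8353 and 9007 to 10586 in the same 3 comparisons, and genes of the 7 called were 7 to 7, 6 to 7 and 5 to 6. The replicate block alone gave 7, 6 and 5 of the 7 and 6624, 6679 and 9077 genes, and Cilp missed the threshold (-1.19, adjusted p = 0.0524). Cilp also missed it with no filter on low counts (adjusted p = 0.117), with the tested fold (0.168) and when only the groups compared were fitted (0.0627). Where no value is named, the cause was not tested. Sham levels of Cilp2, Fmod and Chad rest on few counts, which limits the precision of folds against sham.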
